A study of Mus musculus with 2 samples.

Results

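The genes described here are 9 that handle retinoids, fatty acids and the aldehydes formed from them: Adh7, Aldh1a1, Aldh1a3, Aldh3a1, Rdh10, Crabp1, Crabp2, Fabp5 and Aox4. They were taken by symbol from the 32285 genes of a single-cell RNA sequencing study of mouse palatal gingiva, and all 9 had unique molecular identifiers (UMIs, which count captured transcripts) in both libraries. In that study, 3 µl of a ligand at 1 µg/ml was placed on the palate of female C57BL/6 mice (C57Bl6/J in the treatment protocol) of 8 to 12 weeks, under an oral appliance for 1 hour, and the gingiva was taken 4 days later. The TLR9 ligand was an unmethylated CpG oligodeoxynucleotide (CpG ODN) and the TLR2/4 ligand was a lipopolysaccharide (LPS). Cells released by collagenase and then trypsin from 4 mice per ligand were pooled in equal numbers into 1 library, no library of untreated gingiva is part of these data, and the mice cannot be told apart. With 1 library per ligand there are no replicates, so no difference was tested: each level carries a 95% interval for counting error alone, and a difference between the libraries cannot be told apart from a difference between the 2 pools of mice or the 2 preparations.

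Retinol taken up by a cell is oxidized reversibly to retinaldehyde by retinol and alcohol dehydrogenases, among them Rdh10 and Adh7, and irreversibly to retinoic acid by the retinaldehyde dehydrogenases Aldh1a1 and Aldh1a3. Small binding proteins of a shared family carry these molecules through the cytosol: Crabp1 and Crabp2 bind retinoic acid, and Fabp5 binds long-chain fatty acids and can also bind retinoic acid. Aldh3a1 oxidizes aldehydes from lipid peroxidation and is best known as an abundant protein of the cornea, while Aox4 is an aldehyde oxidase of keratinized epithelia that can act on retinaldehyde. In stratified epithelium, retinoid supply helps to set whether cells keratinize, and fatty acids feed the lipid barrier of the outer layers.

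Of 6219 barcodes in the CpG ODN library and 2016 in the LPS library, 4888 and 1277 had at least 800 detected genes and were kept, with a median of 11077.5 and 22680 UMIs. Clustering without the 9 genes and 103 related ones gave 26 clusters, of which 23 could be named from fixed markers or their leading genes, in 16 classes. Epithelial-like cells made up 78.9% and 82.5% of the kept cells, in 9 classes: basal-like, dividing-like, Krt10-low and Krt10-high spinous-like, upper-like (Lor, Flg, Sprr3), gland-like (Krt8, Krt18, Wfdc2), and clusters led by Krt4, by H19 and by Odam. H19 and the keratins took part in the clustering, so they define those classes and are not results. The 9 genes together held 1.26% of all UMIs in the CpG ODN library and 1.24% in the LPS library, nearly all of them from Fabp5. Levels are the UMIs of a gene per 1000000 UMIs of a class in a library (CPM), and are compared only within a gene, because 3′ capture differs between genes.

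The genes lie on 6 chromosomes, and several have close relatives beside them. By the GENCODE annotation of GRCm38, Adh7 lies at chr3:138217760-138233382 on the plus strand, 27.6 kb from Adh1, and Aox4 at chr1:58210397-58268597 on the plus strand, 9.7 kb from Aox3. Aldh1a1 lies at chr19:20492715-20643465 on the plus strand, 49.5 kb from the near-identical Aldh1a7, and Aldh3a1 at chr11:61207537-61218421 on the plus strand, 5.0 kb from Aldh3a2. Crabp2 and Fabp5 share chromosome 3 with Adh7, at chr3:87948666-87953376 and chr3:10012548-10016607, both on the plus strand. The others are Rdh10 at chr1:16105774-16133734 and Crabp1 at chr9:54764748-54773110, on the plus strand, and Aldh1a3 at chr7:66390890-66427517 on the minus strand. The build of the deposited counts is not given in the sources used here, so these positions describe the genes and not the reads.

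RefSeq promoter entries (GRCm38.p6) were found for 4 of the 9 genes. Those of Adh7, Crabp1 and Aox4 are shown because their levels were highest in different cell classes in the values that follow. Adh7 was highest in the Krt4-led cluster, followed by H19-led and gland-like cells. Crabp1 was highest in fibroblast-like cells, with a lower level in H19-led cells, and Aox4 in the outer layers. The sequences run up to 250 bases upstream, on the plus strand, at chr3:138217523-138217759 for Adh7, chr9:54764498-54764747 for Crabp1 and chr1:58210147-58210396 for Aox4, and capitals mark motif matches on either strand.
Adh7: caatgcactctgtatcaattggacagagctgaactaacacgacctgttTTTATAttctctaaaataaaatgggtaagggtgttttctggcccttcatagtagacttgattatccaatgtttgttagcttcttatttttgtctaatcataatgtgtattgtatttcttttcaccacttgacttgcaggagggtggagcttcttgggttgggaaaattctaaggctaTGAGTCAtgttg
Crabp1: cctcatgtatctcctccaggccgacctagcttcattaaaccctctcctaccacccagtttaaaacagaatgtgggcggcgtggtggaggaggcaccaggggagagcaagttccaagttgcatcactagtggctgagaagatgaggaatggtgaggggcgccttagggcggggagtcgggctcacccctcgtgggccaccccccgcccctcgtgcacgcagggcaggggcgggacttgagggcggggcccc
Aox4: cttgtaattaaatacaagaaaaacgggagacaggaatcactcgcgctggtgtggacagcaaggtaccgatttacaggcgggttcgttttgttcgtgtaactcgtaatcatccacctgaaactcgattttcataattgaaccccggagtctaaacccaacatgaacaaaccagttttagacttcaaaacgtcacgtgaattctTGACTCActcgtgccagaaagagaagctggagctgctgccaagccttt

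Both strands were searched for 4 motifs that do not overlap in these promoters. The AP-1 motif TGANTCA, bound by Jun and Fos proteins, began at -25 in Adh7 and -48 in Aox4, counted from the RefSeq start, and was not found in this window of Crabp1; it occurs in 6.75% of 32851 promoter windows of this length. The TATA motif TATAAA matched in Adh7 at -202, on the minus strand, and occurs in 12.4% of windows. The hexamer AGGTCA (14.0% of windows), a single unit of the paired sites that retinoic acid receptors bind, and the antioxidant response core TGACNNNGC (10.2%) had no match in these 3 windows.

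The 9 genes fell into different places in the tissue, as the plot of levels by class shows. By the mean of both libraries, Fabp5, Crabp2 and Aox4 were highest in the outer epithelial layers, and Adh7 in the Krt4-led cluster, followed by H19-led and gland-like cells. Aldh3a1 was highest in upper-like cells in the LPS library and in Krt4-led cells in the CpG ODN library, where fibroblast-like cells (636 CPM) also stood above upper-like ones (504 CPM). Crabp1 was highest in fibroblast-like cells and Aldh1a3 in Odam-led cells. Aldh1a1 was highest in gland-like cells in the LPS library but in fibroblast-like cells in the CpG ODN library. Rdh10 was similar in gland-like, Odam-led and fibroblast-like cells, whose ranges over the libraries overlapped.

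**Figure D1:**
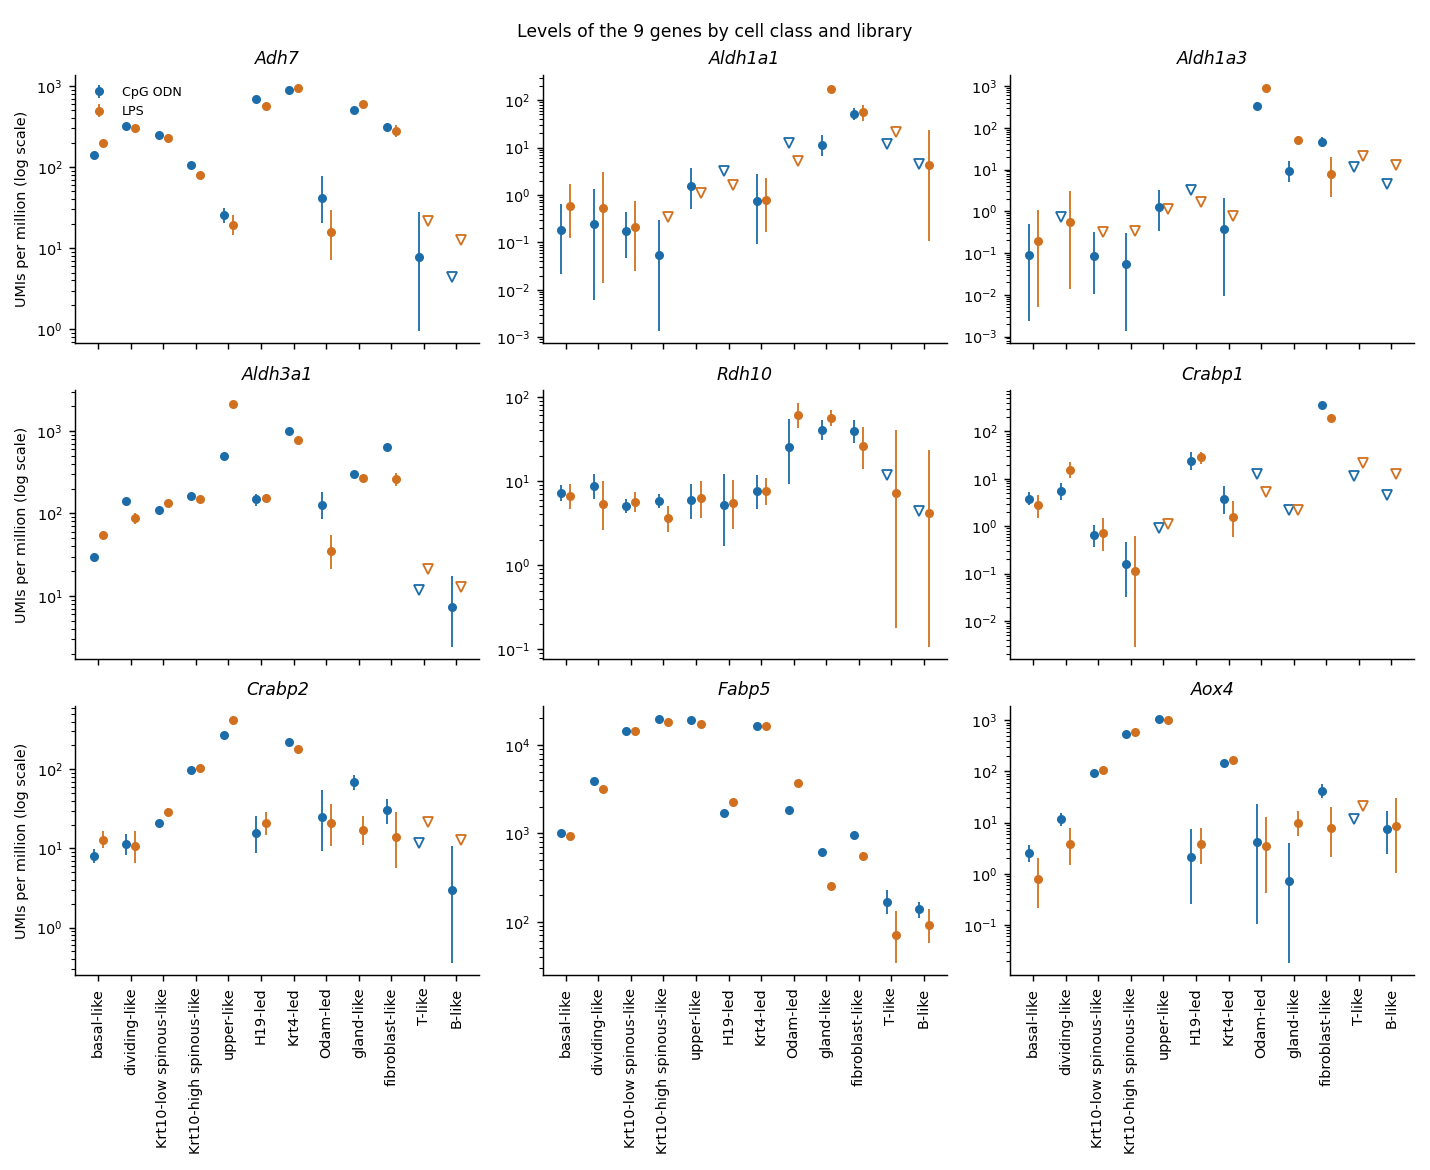
Level of each gene (CPM, log scale) by cell class, 1 point per library (CpG ODN blue, LPS orange) with its 95% Poisson interval. Open triangles mark classes with no UMI and stand at the level 3 UMIs would give. The 2 libraries sit close for Fabp5 in Krt10-low spinous-like cells (14291 and 14408) and far apart for Aldh1a1 in gland-like cells (11.6 and 169).

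Fabp5, Crabp2 and Aox4 were higher in the outer layers of the gingival epithelium than in basal-like cells. Fabp5 stood at 1006 CPM in basal-like cells of the CpG ODN library and 944 in those of the LPS library. In Krt10-low spinous-like cells it was 14291 and 14408, and in Krt10-high cells 19876 and 17987. Most of its step therefore lay between the basal-like and the Krt10-low cells (14.2-fold and 15.3-fold), and upper-like cells, at 19033 and 17282, were 0.958 and 0.961 times the Krt10-high level.

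Crabp2, the cytosolic carrier that delivers retinoic acid to its nuclear receptors, followed a later gradient. Its level was 8.08 and 12.9 CPM in basal-like cells, 21.1 and 29.1 in Krt10-low cells, 98.4 and 105 in Krt10-high cells, and 275 and 413 in upper-like cells. Each step was 2.25-fold or more in both libraries. The widest was from Krt10-low to Krt10-high cells in the CpG ODN library (4.67-fold) and from Krt10-high to upper-like cells in the LPS library (3.94-fold).

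Aox4 had the widest range. It was almost undetected in basal-like cells, with 28 UMIs in 1143 cells of the CpG ODN library and 4 UMIs in 273 cells of the LPS library, and reached 1049 and 1004 CPM in upper-like cells. The ratio was 413-fold (285 to 622) and 1280-fold (499 to 4701), the wide intervals coming from the few basal UMIs. As a rough gauge of free RNA, B-like cells, not expected to express Aox4, held 7.41 and 8.45 CPM, from 5 and 2 UMIs. The basal-like level was under that value, while the Krt10-low level of 92.7 and 107 was above it. B-like cells were shallower, with a median of 2149 and 3157 UMIs against 9341 and 17798 in basal-like cells, and CPM does not correct the gauge for this.

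Aldh3a1 was also highest at the outside, with less regularity. Its level was 29.6 and 54.9 CPM in basal-like cells, between 109 and 162 in both spinous-like classes of both libraries, and 504 and 2152 in upper-like cells. Adh7 ran the other way at the top: it went from 248 and 227 in Krt10-low cells to 106 and 80.4 in Krt10-high cells and 25.5 and 19.6 in upper-like cells. The upper-like level of Adh7 was 0.179 (0.141 to 0.223) and 0.0978 (0.0728 to 0.129) times the basal-like level.

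Rdh10, a retinol dehydrogenase of the endoplasmic reticulum, showed no such gradient, with 3.59 to 8.66 CPM in all 5 of these layers. Crabp1 was at 3.81 and 2.74 CPM in basal-like cells and had no UMI in 91 and 34 upper-like cells, which puts the upper-like level at no more than 0.245 and 0.403 of the basal-like one. Aldh1a1 and Aldh1a3 had at most 5 UMIs in any of these layers and library.

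Between upper-like and basal-like cells, 4 of the 7 genes with enough UMIs were at least 2-fold higher in both libraries (Aldh3a1, Crabp2, Fabp5 and Aox4), against 10.8% of the 11796 genes compared. Adh7 and Crabp1 were at least 2-fold lower, against 43.6% of genes, so a lower level CPM in the upper-like cells was common among all genes. Median depth per cell was also higher toward the outside, from 9341 to 35754 UMIs in the CpG ODN library and from 17798 to 77872.5 in the LPS library, and its part in these ratios was not tested. The size of the ratios depended on how cells were put into layers: with classes set cell by cell from the markers, the upper-like to basal-like ratio was 1.91 and 2.30 for Fabp5, 12.4 and 15 for Aox4, and 0.760 and 0.159 for Adh7. Thinned to 1500 UMIs per cell, Aox4 had a UMI in 0.333% and 0.0802% of basal-like cells, 47.0% and 51.3% of Krt10-high cells and 69.1% and 71.4% of upper-like cells, against 1.22% and 1.35% of B-like cells. The unthinned shares were 2.01% and 1.10%, 96.5% and 98.1%, 96.7% and 97.1%, and 1.77% and 2.90%.

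The Krt4-led cells were a small class (102 and 71 cells) with the spinous markers Krtdap, Dsc2 and Sbsn. They had little Krt10 (930 and 137 CPM, against 10957 and 5933 in upper-like and 757 and 1183 in Krt10-low cells). Krt76 differed between the libraries in this class, at 1070 CPM with CpG ODN and 62.2 with LPS. Its part in the library ratios of the class was not tested. Krt4 is a keratin of non-keratinizing oral and esophageal epithelium. Adh7 reached its highest level here, 888 (852 to 924) CPM in the CpG ODN library and 949 (918 to 980) in the LPS library, and 98.0% and 100% of the cells held at least 1 UMI. No B-like cell did: 0 of 283 and 0 of 69 cells allow a share of up to 1.06% and 4.35%, at a median of 2149 and 3157 UMIs per cell against 23456.5 and 45138 in the Krt4-led cells. At 1500 UMIs per cell, the share with Adh7 was 64.3% and 67.1% in Krt4-led cells and 16.4% and 19.1% in basal-like cells.

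Against Krt10-low spinous-like cells, Adh7 was 3.58-fold and 4.18-fold higher in Krt4-led cells. Aldh3a1 was 9.03-fold (8.55 to 9.54) and 5.72-fold (5.35 to 6.11) higher, at 988 and 771 CPM, and Crabp2 10.5-fold and 6.12-fold higher, at 222 and 178. With Crabp1 (10 and 6 UMIs; its LPS interval, 0.598 to 7.49, included 1), these were 4 of 7 genes at least 2-fold higher in both libraries, against 5.5% of 11992 genes, and none was 2-fold lower, against 5.32%. Fabp5 differed by 1.15-fold and 1.13-fold and Aox4 by 1.57-fold and 1.58-fold, so the Krt4-led cells held Fabp5 at the spinous-like level but Aox4 well under the Krt10-high level of 542 and 595.

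The upper-like class itself held cells of both keratin kinds, in different proportions in the 2 libraries. Cells with more Krt4 than Krt76 UMIs, a division chosen after the values had been seen, were 17 of 91 in the CpG ODN library and 20 of 34 in the LPS library. Aldh3a1 stood at 1285 and 2978 CPM in those cells and at 307 and 431 in the other upper-like cells. Crabp2 was also higher in them (455 and 522, against 229 and 187), and Aox4 was lower (724 and 786, against 1132 and 1456).

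**Figure D2:**
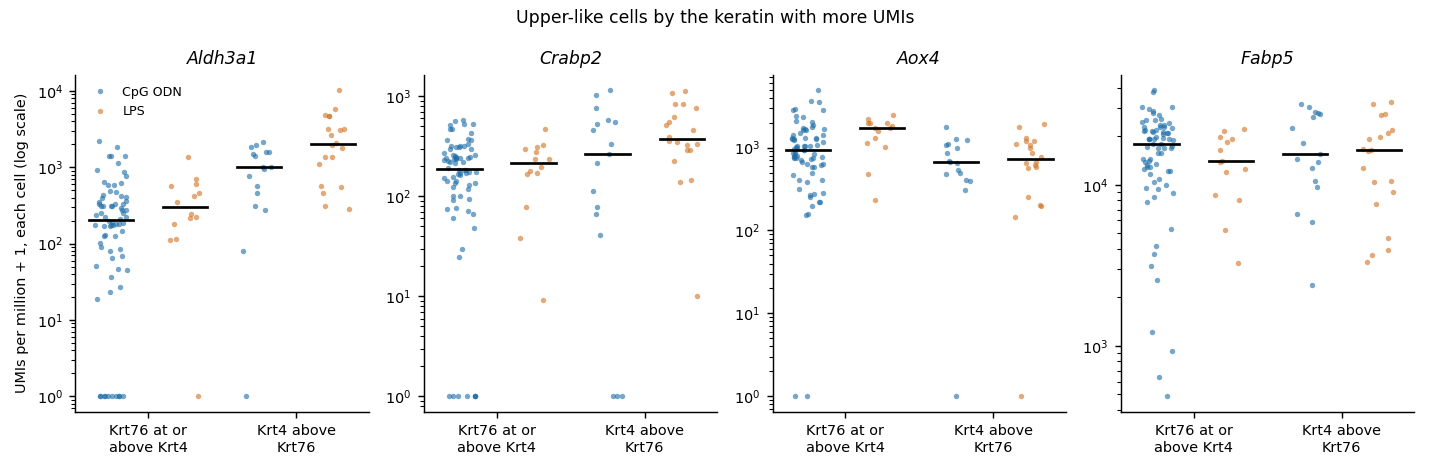
Aldh3a1, Crabp2, Aox4 and Fabp5 in single upper-like cells (CPM + 1, log scale), by library and by whether Krt4 or Krt76 had more UMIs; black lines are medians. The median of Aldh3a1 was 995 and 2009 in the 17 and 20 cells with more Krt4 and 202 and 300 in the other 74 and 14.

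The library difference of Aldh3a1 was smaller within each kind. Over all upper-like cells the CpG ODN level of Aldh3a1 was 0.234 (0.222 to 0.248) times the LPS level, within the Krt4-rich cells it was 0.432 (0.401 to 0.464), and within the others 0.711 (0.628 to 0.806). In the LPS library 1 cell gave 21.7% of the 5830 Aldh3a1 UMIs, and leaving out the top cell of each library gave a ratio of 0.267. Cells above 1000 CPM numbered 14 of 91 and 16 of 34. For Crabp2 the ratio was 0.665 (0.608 to 0.727) over all upper-like cells, but 0.871 and 1.23 within the Krt4-rich cells and the others. For Aox4 it was 1.05 (0.994 to 1.10) over all, but 0.921 (0.828 to 1.02) and 0.777 (0.727 to 0.831) within the Krt4-rich cells and the others. Neither the keratin makeup nor the ligand was tested as a cause.

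H19, an imprinted long noncoding RNA that is abundant in fetal tissue, led a cluster of 85 and 79 cells that kept the basal markers Krt5, Krt15 and Col17a1. H19 itself stood at 188 and 194 CPM there and at 10.3 and 22.7 in basal-like cells, while its imprinted neighbour Igf2 had no UMI in H19-led cells of either library. Adh7 was at 699 and 572 CPM, where basal-like cells had 143 and 200; gland-like cells, at 500 and 598, overlapped with this range. That is a ratio of 4.90 (4.47 to 5.36) in the CpG ODN library and 2.86 (2.62 to 3.12) in the LPS library. Thinned to 1500 UMIs, 58.5% and 50.5% of H19-led cells held Adh7.

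Crabp1, which binds retinoic acid and is thought to hold it in the cytosol for breakdown, was low in the same cells but above its basal-like level. H19-led cells had 23 and 51 UMIs, or 24.1 and 28.2 CPM, against 3.81 and 2.74 in basal-like cells, a ratio of 6.32 (3.63 to 10.8) and 10.3 (5.61 to 20.1). Aldh3a1 was 5.0-fold and 2.82-fold higher, at 148 and 155 CPM. These were 3 of 7 genes at least 2-fold higher in both libraries, against 2.24% of 11478 genes, and none was 2-fold lower, against 3.08%. Fabp5 was 1.71-fold and 2.41-fold higher at 1719 and 2278, and Crabp2 1.95-fold and 1.63-fold higher at 15.7 and 21.

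Taken cell by cell, 42 and 57 epithelial-like cells were H19-positive, which here means at least 3 H19 UMIs. Of them, 22 and 30 were in the H19-led cluster, 12 and 12 basal-like, 6 and 10 dividing-like, 2 and 2 Krt4-led, and 0 and 3 Krt10-low. Crabp1 was 19.9-fold (11.3 to 33.1) and 18.2-fold (12.3 to 27.1) higher in them than in the other epithelial-like cells, from 18 and 53 UMIs. Those UMIs were in 11 of the 42 and 15 of the 57 cells. Crabp1 was the only 1 of the 9 genes at least 2-fold higher in both libraries, against 5.88% of 14181 genes. Adh7 was 2.22-fold and 1.23-fold higher, at 484 and 340 CPM.

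The genes of the outer layers were low in H19-positive cells, which held few cells of those layers. Fabp5 was at 0.315 and 0.318 and Aox4 at 0.147 and 0.0762 of the level in the other epithelial-like cells, against 2.94% of genes at least 2-fold lower in both libraries. Most Aox4 UMIs of the H19-positive cells came from 1 cell in each library, 18 of 22 with CpG ODN and 34 of 39 with LPS. Within basal-like cells the order turned for Fabp5, which was 1.46-fold (1.25 to 1.70) and 1.61-fold (1.47 to 1.77) higher in H19-positive cells. Crabp1 stayed higher within basal-like cells at 21.7-fold (8 UMIs in 12 cells) and 3.79-fold (3 UMIs in 12 cells), the latter with an interval of 0.679 to 14.3. Of these UMIs, 5 of the 8 and all 3 came from 1 cell in each library. Adh7 did not keep 1 direction there, at 1.43-fold (0.914 to 2.14) in the CpG ODN library and 0.641-fold (0.465 to 0.865) in the LPS library. Inside the H19-led cluster the H19-positive cells had less Adh7 than their neighbours, 0.807 and 0.618 times.

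**Figure D3:**
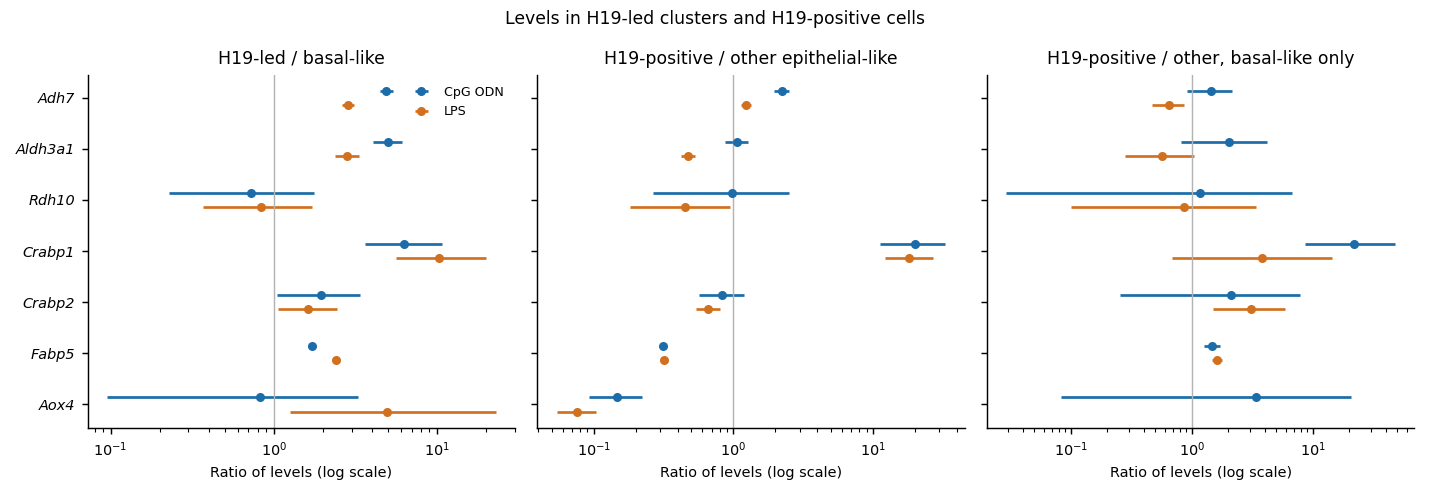
Ratio of levels (log scale) with its 95% counting interval in each library, for H19-led against basal-like clusters, H19-positive against other epithelial-like cells, and the latter within basal-like cells. Crabp1 lies right of 1 in all panels, and Fabp5 lies at 0.315 and 0.318 in the middle panel but at 1.46 and 1.61 within basal-like cells.

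The gland-like class, named from Krt8, Krt18 and Wfdc2, held several of the enzymes, though not all in the same cells. Rdh10 was at 40.6 (30.7 to 52.7) and 56.6 (44.8 to 70.5) CPM, where the 5 epithelial layers had 3.59 to 8.66. Adh7 was at 500 and 598. Aldh1a1 was at 11.6 CPM from 16 UMIs in the CpG ODN library and 169 from 236 UMIs in the LPS library, a ratio of 0.0686 (0.0386 to 0.114).

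The gland-like cells were not the same mixture in both libraries. At a finer clustering they formed 3 sub-clusters, a division added after the values had been seen. The Krt14-high sub-cluster had 80 and 15 cells and no Aldh1a1 UMI. At that resolution the spinous markers Krtdap, Dsc2, Sbsn and Klf5 were above the basal-like clusters in it. Krt76, on the same list, was at 180 CPM, under every other Krt10-low spinous-like cluster. The Krt8 of this sub-cluster was low, at 123 and 104 CPM against 1566 and 1032 in the Ltf-led cells. Most of the class in the CpG ODN library was therefore cells with little Krt8. The Ltf-led one, with secretory genes such as Wfdc18, had 16 and 35 cells and 40.2 and 287 CPM of Aldh1a1, and the Muc5b-led, mucous one had 12 and 14 cells and 21.6 and 82.9. Within them the ratio of CpG ODN to LPS was 0.14 (0.0662 to 0.263) and 0.261 (0.0890 to 0.635). In the LPS library 1 cell held 22.0% of the gland-like Aldh1a1 UMIs.

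Adh7 and Rdh10 divided differently over the sub-clusters. Adh7 was at 668 and 922 CPM in the Krt14-high cells and 474 and 771 in the Ltf-led cells, but at 7.21 and 0 in the Muc5b-led cells. Rdh10 peaked in the Ltf-led cells at 120 and 85.3, with 28.1 and 32.5 in the Krt14-high cells. Aldh1a3 was also present in the Ltf-led cells, at 44.2 CPM in the CpG ODN library (11 UMIs in 6 of 16 cells) and 90.9 in the LPS library (65 UMIs in 3 of 35 cells). Over the whole gland-like class, 2 of 7 genes were at least 2-fold higher in the CpG ODN library (Crabp2 and Fabp5), against 5.12% of 8991 genes, and 2 were lower (Aldh1a1 and Aldh1a3), against 6.91%. The Aldh1a3 ratio of 0.183 rested on 1 LPS cell with 60 of 72 UMIs and was 0.866 (0.335 to 2.19) without the top cell of each library. Fabp5 did not keep 1 direction over the sub-clusters, at 2.19 in the Krt14-high, 4.36 in the Ltf-led and 0.172 (0.105 to 0.269) in the Muc5b-led cells, and Crabp2 was at 1.48 (0.909 to 2.51) in the Krt14-high cells. Krt14, a marker of the first sub-cluster, stood at 6111 and 2354 CPM in the class.

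Aldh1a3 came from few cells, with 151 UMIs in 35 cells of the CpG ODN library and 580 in 14 cells of the LPS library. The Odam-led class, with 17 and 16 cells that express the junctional epithelium gene Odam, had 333 and 879 CPM, the highest of the 16 classes. In the CpG ODN library 2 of the 17 cells held its 79 UMIs, 70 of them in 1 cell. In the LPS library 5 of the 16 cells held 502 UMIs, 394 of them in 1 cell with 953 Odam UMIs and 105 in another with 359. Outside that class, 1 gland-like cell of the LPS library held 60 Aldh1a3 UMIs and no Odam UMI, and 1 fibroblast-like cell of the CpG ODN library held 23.

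The Odam-led cells also had Rdh10 at 25.3 (9.28 to 55.0) and 61.3 (42.7 to 85.3) CPM. Adh7 was low in them, at 42.1 and 15.8, and Crabp1 had no UMI. Aldh1a1 had none either. The library ratio of Aldh1a3 in this class was 0.379 (0.295 to 0.481), and 0.202 without the top cell of each library.

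With all cells counted, fibroblast-like cells (236 and 55, with Col1a1, Dcn and Pdgfra) had more of every member than B-like cells in both libraries, except Aox4 in the LPS library. A few of these cells also held at least 5 UMIs of Krt5 and Krt14 in sum, 7 in the CpG ODN library and 5 in the LPS library. Values without them are therefore given for Fabp5, Aox4, Crabp1, Aldh3a1 and Adh7. Without them Fabp5 (116 and 89.5 CPM) and Aox4 (2.14 and 2.42 CPM) were under the B-like level in both libraries. Crabp1 was at 366 (331 to 405) and 191 (155 to 233) CPM with all cells, and at 414 and 232 without the keratin-bearing ones. With all cells it was 207-fold and 63.0-fold above all epithelial-like cells. Aldh1a1 was at 51.8 and 55.6 CPM, and Rdh10 at 39.5 and 25.8. These were 3 of the 9 genes at least 2-fold higher than in epithelial-like cells in both libraries, a share near the 25.4% of 14686 genes that were.

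Crabp2, Fabp5 and Aox4 were 3 of 9 genes at least 2-fold lower, against 7.22% of genes. Fabp5, at 946 and 552 CPM, rested largely on the keratin-bearing cells: 1 cell of the CpG ODN library held 49.1% of its UMIs, and without the keratin-bearing cells the level was 0.00905 and 0.00754 of the epithelial-like one and, at 116 and 89.5 CPM, under that of B-like cells (138 and 92.9). Likewise, 42 of 45 Aox4 UMIs of the CpG ODN library came from 1 cell. Aldh3a1 was 3.98-fold and 0.782-fold the epithelial-like level without them and 3.68-fold and 0.739-fold with them. Adh7 was 1.43-fold and 1.00-fold the epithelial-like level with the keratin-bearing cells and 1.47-fold and 0.726-fold without them, since its LPS level was 280 CPM with them and 203 without.

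The fibroblast-like cells split into Col14a1-high cells (159 and 39, with Pi16, Mfap5 and Clec3b) and Col14a1-low cells (77 and 15, with Cytl1, Ecrg4 and Wif1). Crabp1 was at 959 and 673 CPM in the Col14a1-low cells and 104 and 59.1 in the others, a ratio of 9.26 (7.20 to 12.0) and 11.4 (7.05 to 19.1). Without the keratin-bearing cells Crabp1 was at 124 and 75.5 in the Col14a1-high cells, so these ratios are smaller without them. It had a UMI in 46 of 77 and 4 of 15 Col14a1-low cells, so the LPS value rests on 4 cells. Adh7 was lower in the Col14a1-low cells, at 231 and 27.7 against 365 and 352, and so was Aldh3a1, at 552 and 101 against 668 and 306. Without the keratin-bearing cells the Col14a1-high levels were 376 and 266 for Adh7 and 763 and 335 for Aldh3a1. Their LPS values in the Col14a1-low cells rest on 3 Adh7 UMIs in 2 of 15 cells and 11 Aldh3a1 UMIs in 6 of 15. Rdh10 (37.0 and 18.4, against 39.8 and 28.2) and Aldh1a1 (64.7 and 55.3, against 45.1 and 56.5) had ratios whose intervals included 1.

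**Figure D4:**
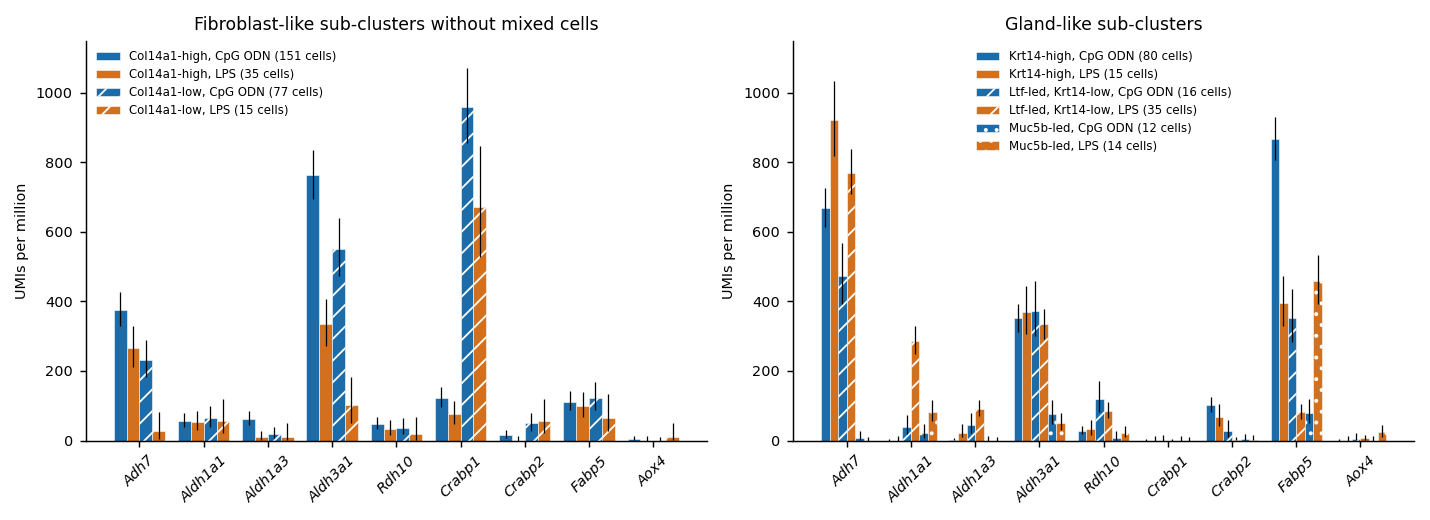
Levels of the 9 genes (CPM, bars from 0, with 95% Poisson intervals) in fibroblast-like sub-clusters without the keratin-bearing cells (left; Fabp5 112 and 98.4 in the Col14a1-high cells) and in gland-like sub-clusters (right), by library. Crabp1 stands out in Col14a1-low fibroblast-like cells (959 and 673), and Aldh1a1 in the Ltf-led gland-like cells of the LPS library (287).

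Between the ligands, each gene was compared in the class where the mean of its 2 levels was highest. The CpG ODN level of Adh7 was 0.936 (0.888 to 0.986) times the LPS level, that of Fabp5 1.11 (1.10 to 1.11) and that of Aox4 1.05 (0.994 to 1.10). In upper-like cells with more Krt4 than Krt76 UMIs, Aox4 was at 0.921 (0.828 to 1.02), and in the other upper-like cells at 0.777 (0.727 to 0.831). The choice of class set the direction for Aldh3a1, which was at 0.234 in upper-like cells but 1.28 (1.21 to 1.35) in Krt4-led cells. Aldh1a1, at 0.0686 in gland-like cells, was at 0.931 (0.580 to 1.52) in fibroblast-like cells. Rdh10 had a ratio of 0.717 with an interval of 0.50 to 1.02. Crabp1 in fibroblast-like cells was 1.92-fold (1.53 to 2.43) higher in the CpG ODN library and 2.76-fold without the top cell of each library, since 1 LPS cell held 40.6% of that library's UMIs.

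**Figure D5:**
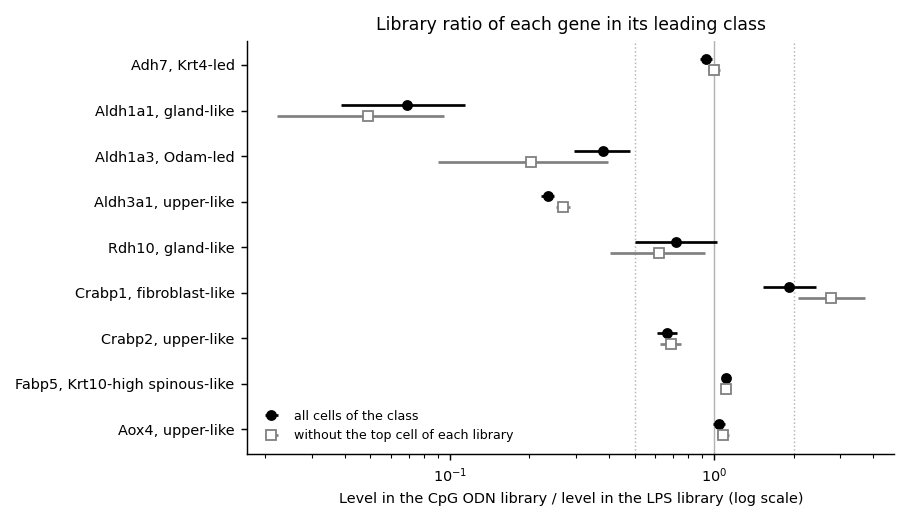
CpG ODN level divided by LPS level (log scale) for each gene in the class where the mean of both libraries is highest, with 95% counting intervals, for all cells (black) and without the top cell of each library (grey); dotted lines mark 0.5 and 2. Aldh1a1 (0.0686), Aldh1a3 (0.379) and Aldh3a1 (0.234) lie left of 0.5 and no gene lies right of 2 with all cells.

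Over all epithelial-like cells, none of the 9 genes was at least 2-fold higher in the CpG ODN library, against 1.4% of 14181 genes, and 3 were lower (Aldh1a1, Aldh1a3 and Aldh3a1), against 5.6%. Gland-like cells held 16 of the 31 epithelial-like Aldh1a1 UMIs with CpG ODN and 236 of 245 with LPS. For Aldh1a3, Odam-led cells held 79 of 101 and 502 of 576. With CpG ODN these classes made up 2.21% and 0.348% of the kept cells, and with LPS 5.01% and 1.25%. The Aldh1a1 ratio was 0.0689 over all epithelial-like cells and 0.0686 within gland-like cells. That of Aldh1a3 was 0.0955 over all and 0.379 within Odam-led cells. The part of class frequency was not tested. In upper-like cells, 0 of 6 genes was 2-fold higher, against 4.93% of 7649 genes, and Aldh3a1 alone was lower, against 4.48%. In fibroblast-like cells, Aldh1a3, Aldh3a1, Crabp2 and Aox4 were at least 2-fold higher in the CpG ODN library, 4 of 9 against 4.92% of 7750 genes, and none was lower, against 3.77%. Of these, Aldh3a1 was the best counted, at 636 (589 to 685) and 258 (216 to 307) CPM, a ratio of 2.46 (2.04 to 2.99) and 2.52 without the keratin-bearing cells. The other 3 had at most 7 LPS UMIs, and Aox4 was at 0.885 without those cells.

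Other genes of the pathways were read from lists of 43 retinoid, 45 fatty acid and 15 further aldehyde dehydrogenase genes. From basal-like to upper-like cells, 9 of 23 retinoid genes with enough UMIs were at least 2-fold higher in both libraries and 4 lower. Over all genes, 10.8% were higher and 43.6% lower. The median log2 ratio was 0.03, against -1.06 for all genes. Rbp7, a retinol-binding protein, went from 8.27 and 8.23 CPM to 530 and 283, and Sdr16c5, a retinol dehydrogenase, from 7.81 and 11 to 263 and 200. Rdh12, which reduces retinaldehyde, went from 12.7 and 16.3 to 113 and 97.4. Cyp26b1, which breaks down retinoic acid, was among the 4 lower genes, with 11.1 and 10.0 in basal-like and 0.311 and 2.58 in upper-like cells.

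Of the fatty acid list, 14 of 32 genes were higher in upper-like cells and 8 lower, with a median log2 ratio of 0.92. The shares over all genes were 10.8% higher and 43.6% lower. The higher ones included 5 elongases, such as Elovl4 (0.727 and 0.392 to 504 and 609 CPM), the ceramide synthase Cers3 (7.18 and 5.10 to 81.5 and 92.6) and the lipoxygenases Alox12b and Aloxe3. The desaturases Fads1, Fads2, Fads3 and Scd1 were among the 8 lower ones. Of the further aldehyde dehydrogenases, 2 of 12 were higher and 7 lower, with a median of -2.10; Aldh3b2 was higher (5.27 and 8.43 to 66.5 and 97.8) and the mitochondrial Aldh2 lower (159 and 174 to 8.71 and 7.01).

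In H19-led against basal-like cells, 2 of 21 retinoid genes were at least 2-fold higher (Stra6 and Dhrs9) and none lower. Of the fatty acid genes 1 of 26 was higher (Fads2) and 2 lower. Of the 11478 genes compared, 2.24% were higher and 3.08% lower. Stra6, a receptor for retinol-binding protein, was at 10.5 and 6.64 CPM in H19-led and 0.454 and 0.784 in basal-like cells. It was at 41.3 and 33.6 in gland-like cells, where it was a leading gene of the Krt14-high, Krt8-low sub-cluster only. Fads2, a fatty acid desaturase, was at 31.5 and 31.0 against 7.99 and 10.0. Of the aldehyde dehydrogenases, Aldh3b2 alone was higher, 1 of 12, at 40.9 and 54.8 against 5.27 and 8.43. The median log2 ratios were -0.08, 0.10 and -0.23 for the 3 lists, and -0.10 for all genes.

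Krt4-led cells had 5 of 23 retinoid genes higher than Krt10-low cells and 2 lower. Of the fatty acid genes 8 of 32 were higher and 2 lower, and of the aldehyde dehydrogenases 2 of 13 each way. Of the 11992 genes compared, 5.5% were higher and 5.32% lower. Rdh12 was at 148 and 124 CPM against 32.1 and 36.9, and Aldh3b2 at 257 and 324 against 116 and 131. Rbp7 was lower, at 81.3 and 50.1 against 175 and 208, as was Bco1, which cleaves beta-carotene to retinaldehyde, at 1.13 and 0.264 against 11.1 and 14.9.

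In fibroblast-like against all epithelial-like cells, 13 of 33 retinoid genes were higher and 5 lower. Of the fatty acid genes 8 of 36 were higher and 11 lower, and of the aldehyde dehydrogenases 4 of 14 and 3. Of the 14686 genes compared, 25.4% were higher and 7.22% lower. The shares of higher fatty acid and aldehyde dehydrogenase genes were thus near that of all genes. Aldh1a2, the third retinaldehyde dehydrogenase, had 32 and 9 UMIs in fibroblast-like cells (30.1 and 17.9 CPM) and none in any epithelial class named here. Cyp26b1 was at 328 and 87.4 CPM there, and Lpl, a lipase of triglyceride-rich particles, at 123 and 141.

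The genes whose levels ran most like each member over the 32 units of 16 classes in 2 libraries were named by Pearson's r of log2(CPM + 10) among 9294 genes; units of a library share its depth and its mice, so r is a description. Aox4 ran with Serpinb12, Acer1 and Dlg2 (r of 0.97 to 0.98), Crabp2 with Grhl3, Sptssb and Sbsn (0.95), and Fabp5 with Them5, Ggt6 and Nhp2 (0.94 to 0.95). For Adh7 they were Efs, Gm4675 and Krt15 (0.84 to 0.87), and for Aldh3a1 Crabp2, F3 and Camsap3 (0.86 to 0.88). Crabp1 ran with Scara5, Fbln1 and Mrc2 (0.88 to 0.89), Aldh1a3 with Fxyd4, Cdo1 and Odam (0.91 to 0.92), and Rdh10 with Cxcl5, Bace2 and Qsox1 (0.81 to 0.82). Among the 9 genes, Crabp2 and Aldh3a1 were the closest pair (0.88), while Crabp1 and Crabp2 had an r of -0.03.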

How the data were processed

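The deposited files hold raw UMI counts per gene and cell barcode, made by the authors with Cell Ranger 4.0.0; the submitters' processing notes also name Seurat, and the genome build and the use of strand are not given in the sources used here. The count of each gene was read by symbol. Barcodes under 800 detected genes were left out, with no mitochondrial filter; doublets were kept and no caller was run. The libraries shared 5 barcodes, 1 of them among kept cells. For clustering, each cell was scaled to a total of 10000 UMIs and taken to natural logs, and 2000 variable genes, without the 112 members and list genes, gave 30 principal components and 15 nearest neighbours, and Leiden clustering at resolution 1.0 (leidenalg 0.10.2, igraph 0.11.9, scikit-learn 1.9.0, Python 3.11.15).

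A cluster was called X-like when at least 3 markers of a fixed list (4 for dividing cells) passed. A marker passed if found in at least 20% of the cluster's cells at 2 or more times a reference level. The reference was the mean of all other clusters for lineages and of the other epithelial clusters for epithelial classes. For spinous-like clusters it was the mean of the basal-like clusters. Clusters led more by markers of another lineage, and B-like ones with plasma cell markers, were left unnamed. The exact thresholds, and naming clusters by H19, Krt4 or Odam among their 10 leading genes, were set after the data had been seen. Spinous-like clusters were divided into Krt10-low and Krt10-high by their Krt10 level. The members and lists were chosen with earlier results of these data known.

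UMIs of a class were summed per library and divided by that class's total, per 1000000 (CPM). Levels carry exact Poisson intervals, ratios exact conditional binomial intervals and shares Clopper-Pearson intervals, all at 95% and for counting error only; a count of 0 was set to 3 counts for a bound. A gene entered a comparison with at least 20 UMIs over both sides and counted as called past 2-fold. The scripts were tested on simulated data (scipy 1.17.1, numpy 2.4.6). Named were the 9 members, H19 and Igf2, list genes with at least 100 UMIs among the 3 highest of a class or past 2-fold in both libraries, and the 3 most similar genes of members with at least 500 UMIs (Aldh1a1 had fewer). Reads of near-identical relatives (Aldh1a1 and Aldh1a7) and of overlapping opposite-strand genes (Adh7 with 0610031O16Rik, Aldh1a1 with Gm6684 and C730002L08Rik, Aox4 with Gm15759) may be divided uncertainly. Clusters at resolutions 0.5 and 2.0, cells with at least 1200 genes, classes set cell by cell, a mean over cells, and leaving out the top cell or cells with markers of another lineage were the alternatives. The result of 1 list gene is not reported here.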

Additional observations from a re-analysis of the deposited data

Results flagged for a closer look

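Aldh3a1 stood on opposite sides of the epithelial level in the fibroblast-like cells of the libraries: the ratio to all epithelial-like cells was 3.68 (3.40 to 3.98) in the CpG ODN library and 0.739 (0.616 to 0.878) in the LPS library. Both sides of the ratio differed, since Aldh3a1 was 636 and 258 CPM in fibroblast-like cells and 173 and 350 in epithelial-like cells, the latter with 5830 of 12484 LPS UMIs in 34 upper-like cells. Without the keratin-bearing fibroblast-like cells the ratios were 3.98 and 0.782. The difference was not tested, as each ligand has 1 library.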

How the results depend on the processing

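No paired analysis was possible because there is only 1 library for either ligand. Ratios of upper-like to basal-like cells kept their direction under the alternatives run, though setting classes cell by cell brought them nearer to 1. The number of members at least 2-fold lower in upper-like cells was 1, not 2, and the number at least 2-fold higher with CpG ODN in their leading class was 1, not 0, under a mean over cells, classes set cell by cell and without the top cells. The library ratio of CpG ODN to LPS as a mean over cells was 1.00 for Adh7 in Krt4-led cells, 0.258 for Aldh1a3 in Odam-led, 0.267 for Aldh3a1 and 0.966 for Aox4 in upper-like and 1.08 for Fabp5 in Krt10-high cells. Without the top cell of each library it was 1.00 for Adh7, 0.202 for Aldh1a3, 0.267 for Aldh3a1 and 2.76 for Crabp1. Other clusterings gave 1.15 (resolution 0.5) and 1.14 (2.0) for Fabp5 and 0.14 (2.0) for Aldh1a1, and classes set cell by cell 0.175 for Aldh1a1, 0.364 for Aldh3a1 and 0.966 for Aox4. With divisions chosen after the data were seen, the Ltf-led gland-like cells gave 0.14 for Aldh1a1 and 1.41 for Rdh10, and the Muc5b-led cells 0.261 and 0.337. Upper-like cells with more Krt4 than Krt76 gave 0.432 for Aldh3a1, 0.871 for Crabp2 and 0.921 for Aox4, and the others 0.711, 1.23 and 0.777. Crabp2 turned direction in the others. Aox4 was under 1 in both kinds but at 1.05 (0.994 to 1.10) over all upper-like cells. At resolution 0.5, 1 cluster of 185 and 149 cells had Krt4 as its first leading gene and H19 among the others. It was named H19-led, so Krt4-led and H19-led cells were not separated there and no Krt4-led value was given.

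Comparing H19-positive with other cells within a class reversed several ratios. Within basal-like cells these were Adh7 at 0.641 and Crabp2 at 3.09 in the LPS library, and Fabp5 at 1.46 and 1.61. Aox4 was at 3.42 there in the CpG ODN library, from 1 UMI in the 12 H19-positive cells. Within dividing-like cells of the LPS library Aldh3a1 was at 1.615 and Crabp2 at 2.17. Within H19-led cells Adh7 was at 0.807 and 0.618 and Crabp2 at 1.59 with LPS. Aox4 was at 2.49 there with CpG ODN, from 2 UMIs in the whole class. The number of members at least 2-fold lower was 0, not 2, with 1 or more H19 UMIs and within basal-like, dividing-like and H19-led cells; the number higher was 2, not 1, for the H19-led clusters and within basal-like cells, and 0 within H19-led cells. The cause was not tested.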
